A study of Homo sapiens with 6 samples.

Results

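The transcription factor p53 answers DNA damage and other stress by switching on genes that stop the cell cycle, and several of the genes it activates act back on p53 and shut the response down again. 10 such genes were followed in HCT116, a human colorectal cancer cell line, after PLEK2 was silenced with an shRNA. They were CDKN1A, MDM2, ZMAT3, CCNG1, BTG2, PPM1D, SESN1, SESN2, GDF15 and TP53INP1, picked by gene symbol from the 17047 genes of the deposited expression table. All 10 were in the table, and all 10 passed the filter on low counts, as did 12959 genes in total. The labels give 3 libraries with shNC, a non-targeting shRNA, and 3 libraries with PLEK2 knockdown. Both groups are transduced HCT116 cells, and neither received a drug or a damaging agent according to the labels. The study's primer table names only 1 PLEK2 shRNA, so an effect of losing PLEK2 and an effect of this hairpin cannot be told apart. The labels do not say whether the 3 libraries of a group came from separate cultures, so p-values cannot be taken to cover differences between cultures. The test used also takes part of the spread of each gene from other genes.

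In unstressed cells p53 is held low by MDM2, the ubiquitin ligase that p53 itself induces. Once p53 is stabilized, p21 (encoded by CDKN1A) inhibits cyclin-dependent kinases, and BTG2 slows proliferation. MDM2, the phosphatase Wip1 (encoded by PPM1D) and cyclin G1 (encoded by CCNG1) then dampen p53 in a negative feedback.

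The target of the PLEK2 shRNA, 21 bases long, is shown because transcripts can be searched for it and for its seed site. The capitals mark the 7 bases that pair with the seed (bases 2 to 8) of the guide strand.
PLEK2 shRNA target: gctggtgtactacAAGCTTGa
Among the GENCODE 44 transcripts (GRCh38), the full target was present in PLEK2 alone. The 7-base seed site AAGCTTG was found in the annotated 3′ UTR of 0 of the 10 genes, over 31 coding transcripts, whereas 11.1% of 19225 coding genes hold it. At that share, 0 of 10 is not unusual. Partial matches, sites outside the 3′ UTR and the other strand of the hairpin were not searched. Whether the hairpin acts on the 10 genes apart from PLEK2 was not tested.

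PLEK2 itself had 85.97, 72.63 and 82.88 CPM (read counts scaled to library size by the TMM method of edgeR, not to transcript length) in shNC replicates 1, 2 and 3, and 16.02, 32.19 and 34.95 CPM in PLEK2 shRNA replicates 1, 2 and 3. Every PLEK2 shRNA library lay below every shNC library, and the log2 ratios within same-numbered pairs were -2.42, -1.17 and -1.24. Even so PLEK2 had an edgeR adjusted p of 0.684 without a term for the replicate number (log2 fold change -1.54, standard error 0.24), and it fell past the threshold of 0.05 only with that term (-1.57, standard error 0.17, edgeR adjusted p = 0.00106). Libraries held between 14377532 and 15602732 counts. The epithelial label was checked on 8 markers, whose FPKM (a count scaled to transcript length and library size) summed to between 4211 and 4851 with shNC and between 3452 and 4519 with PLEK2 shRNA. Most of this sum was KRT8 (mean of 2376 FPKM with shNC) and KRT18 (1991 FPKM). EPCAM (156), CDH1 (23.8) and CDX2 (7.82 FPKM) were lower, and KRT20 (1.12), LGALS4 (0.16) and VIL1 (0.023 FPKM) were hardly present. The sum is thus mainly a measure of these 2 keratins. Fibroblast markers summed to at most 6.04 FPKM in any library, nearly all of it COL1A1, and leukocyte and endothelial markers to at most 1.09 FPKM. Of the 6 epithelial markers tested, 1 had a positive log2 fold change and 0 passed an adjusted p of 0.05 in edgeR, with a median of -0.22. With a term for the replicate number, 3 of the 6 had an unadjusted p under 0.05 in edgeR and 0 passed after adjustment (KRT18 -0.24, adjusted p = 0.0841; CDH1 -0.33, adjusted p = 0.0965; KRT8 -0.21, adjusted p = 0.0989). Of all genes tested, 18.3% had such an unadjusted p, 10.4% being lower. These 3 markers were lower in all 3 pairs, as were 21.1% of all genes, and most in pair 1, where the log2 ratio of CDH1 was -0.69. Over the 10141 genes with a mean log2 CPM above 3, replicate 1 stood apart in both groups. Its chi-square per gene was 17.5 to 25.0 against replicates 2 and 3, while replicates 2 and 3 differed by 5.62 with shNC and 3.57 with PLEK2 shRNA. The part of these markers in the results was not tested, and values without replicate 1 are given with the results by pair.

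Of the 10 genes, 9 had a higher mean with PLEK2 shRNA than with shNC, where 49.4% of all genes had a positive log2 fold change, and MDM2 alone had a lower mean. The differences were modest, with a median log2 fold change of 0.36 over the 10 genes against -0.002 over all genes tested. None of the 10 passed edgeR's quasi-likelihood test when the groups were compared without a term for the replicate number. With the replicate number as a block, a term that gives each same-numbered pair of libraries its own level, CDKN1A and ZMAT3 rose. Both fits are given because deviations from the group means were shared between same-numbered libraries. The labels do not say what a shared number stands for, so the block rests on these data.

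CDKN1A and BTG2 are the members that act most directly on proliferation. CDKN1A (NCBI Gene 1026) had 214.37, 126.13 and 135.64 CPM in shNC replicates 1, 2 and 3, and 299.25, 158.01 and 158.19 CPM in PLEK2 shRNA replicates 1, 2 and 3. Every PLEK2 shRNA library lay above the shNC library with the same number, but shNC replicate 1 lay above PLEK2 shRNA replicates 2 and 3, so the groups overlapped. The log2 ratio within pairs was 0.48 in pair 1, 0.33 in pair 2 and 0.22 in pair 3, a mean difference of 26.8%. Without the block the log2 fold change was 0.37 (standard error 0.28, edgeR adjusted p = 0.968). With the block it was 0.35 (standard error 0.059, edgeR adjusted p = 0.0215).

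BTG2 (NCBI Gene 7832), which recruits the CCR4-NOT deadenylase to mRNAs, had 30.18, 20.54 and 24.79 CPM with shNC and 42.21, 28.25 and 25.48 CPM with PLEK2 shRNA, in the order of the replicate numbers. Here pairs 1 and 2 were alike, with log2 ratios of 0.48 and 0.46, while pair 3 gave 0.040, which is smaller than its counting error of 0.11. The block gave BTG2 a log2 fold change of 0.34 (standard error 0.092, edgeR adjusted p = 0.0965).

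**Figure D1:**
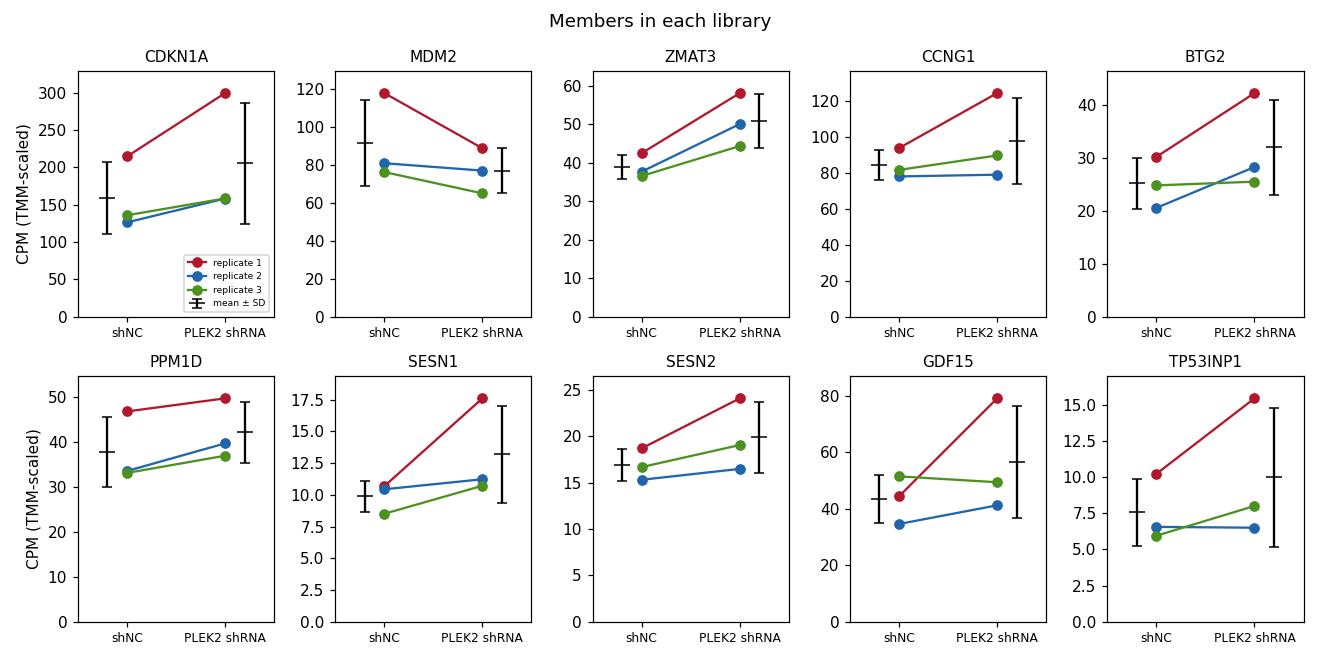
Level of each of the 10 genes in CPM (y axis, from 0) in the shNC and PLEK2 shRNA libraries (x axis), with lines joining libraries of the same replicate number and black bars giving the mean ± SD of 3 libraries. Replicate 1 was the highest PLEK2 shRNA library for all 10 genes, and MDM2 is the gene whose 3 lines all slope down.

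Among the genes that act back on p53, MDM2 went against the rest. MDM2 (NCBI Gene 4193) had 117.78, 80.82 and 76.16 CPM in shNC replicates 1, 2 and 3, and 88.69, 76.93 and 64.93 CPM in PLEK2 shRNA replicates 1, 2 and 3. It was lower in each of the 3 pairs, with log2 ratios of -0.41, -0.071 and -0.23, and the ratio of pair 2 was close to its counting error of 0.060. The groups overlapped, since PLEK2 shRNA replicate 1 lay above shNC replicates 2 and 3. The log2 fold change was -0.25 without the block (standard error 0.18, edgeR adjusted p = 0.968) and -0.24 with it (standard error 0.067, edgeR adjusted p = 0.101), so MDM2 did not pass the test.

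PPM1D, whose product removes phosphates from ATM and p53, had small differences of 1 sign. It had 46.86, 33.60 and 33.16 CPM with shNC and 49.78, 39.75 and 37.00 CPM with PLEK2 shRNA. It was the 1 gene of the 10 whose largest pair ratio was not in pair 1, with 0.087, 0.24 and 0.16 on the log2 scale. The block gave 0.16 (standard error 0.067, edgeR adjusted p = 0.229). CCNG1, whose cyclin binds the phosphatase PP2A and MDM2, had 93.86, 78.06 and 81.70 CPM with shNC and 124.48, 79.04 and 89.75 CPM with PLEK2 shRNA. The excess in the second group came mostly from replicate 1, where the log2 ratio was 0.41, against 0.018 and 0.14 in pairs 2 and 3. With the block its log2 fold change was 0.19 (standard error 0.071, edgeR adjusted p = 0.179).

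ZMAT3 (NCBI Gene 64393), a zinc finger protein that binds RNA and takes part in splicing, had the clearest separation. It had 42.50, 37.69 and 36.56 CPM with shNC and 58.11, 50.06 and 44.35 CPM with PLEK2 shRNA, so its lowest PLEK2 shRNA library lay above its highest shNC library. The means were 38.9 ± 3.15 and 50.8 ± 6.91 CPM (SD, n = 3). The pair ratios of 0.45, 0.41 and 0.28 on the log2 scale each exceeded their counting errors of 0.074 to 0.084 several times over. The log2 fold change was 0.39 without the block (standard error 0.12, edgeR adjusted p = 0.968) and 0.38 with it (standard error 0.066, edgeR adjusted p = 0.0215). The counts of ZMAT3 carried decimals in all 6 libraries, as happens when reads are divided between genes, so its level is less certain than that of the members with whole counts.

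The sestrins, SESN1 and SESN2, restrain mTORC1 when amino acids or energy are scarce. SESN1 had 10.69, 10.45 and 8.52 CPM with shNC and 17.61, 11.23 and 10.72 CPM with PLEK2 shRNA. The groups of SESN1 did not overlap, although the margin was only that between 10.72 and 10.69 CPM. Its pair ratios were 0.72, 0.10 and 0.33 on the log2 scale with counting errors of 0.14 to 0.17, since the gene had between 123 and 277 counts per library. SESN2 had 18.71, 15.32 and 16.69 CPM with shNC and 24.10, 16.49 and 19.06 CPM with PLEK2 shRNA. It was higher in each pair, by 0.36, 0.11 and 0.19 on the log2 scale, with overlap between the groups. With the block the log2 fold changes were 0.40 for SESN1 (standard error 0.13, edgeR adjusted p = 0.129) and 0.23 for SESN2 (standard error 0.091, edgeR adjusted p = 0.208).

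GDF15, a secreted stress cytokine of the TGF-β superfamily, varied most between pairs. It had 44.45, 34.66 and 51.51 CPM with shNC and 79.15, 41.26 and 49.44 CPM with PLEK2 shRNA. Its log2 ratio was 0.83 in pair 1, 0.25 in pair 2 and -0.059 in pair 3, so the high value of PLEK2 shRNA replicate 1 set it apart. TP53INP1, a stress protein that takes part in autophagy and in p53 phosphorylation, was the least abundant member. It had 10.23, 6.56 and 5.95 CPM with shNC and 15.45, 6.50 and 8.01 CPM with PLEK2 shRNA, and its pair ratios were 0.59, -0.013 and 0.43 on the log2 scale. GDF15 and TP53INP1 were the members that were not shifted in the same direction in all 3 pairs. Their log2 fold changes with the block were 0.35 (standard error 0.12, edgeR adjusted p = 0.155) and 0.37 (standard error 0.14, edgeR adjusted p = 0.180).

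**Figure D2:**
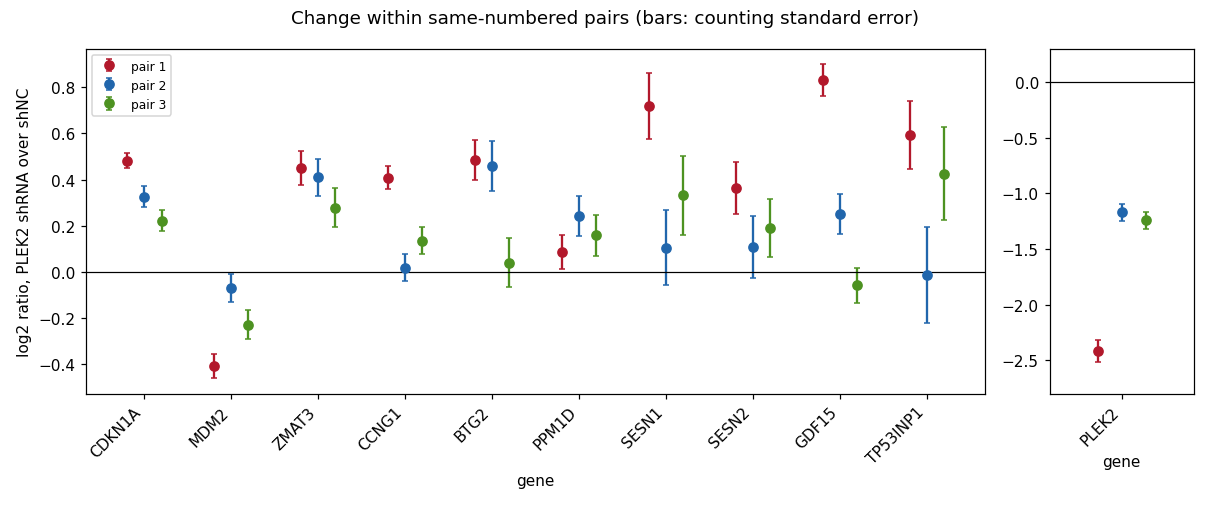
Log2 ratio of PLEK2 shRNA over shNC (y axis) within each same-numbered pair for the 10 genes and, on its own scale at the right, for PLEK2, with bars giving the counting standard error of each ratio. Pair 1 held the ratio farthest from 0 for 9 of the 10 genes and for PLEK2 (-2.42).

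To compare levels between genes, values per transcript length were used. In the shNC libraries CDKN1A was the most abundant member at 77.4 ± 23.4 FPKM (SD, n = 3). CCNG1 (36.6 ± 3.47) and GDF15 (32.9 ± 6.18 FPKM) followed, and their libraries overlapped. Below them MDM2 (12.6 ± 3.10), BTG2 (9.67 ± 1.84) and PPM1D (8.05 ± 1.62 FPKM) formed a middle range in which neighbours overlapped. SESN2 (4.94 ± 0.48) and ZMAT3 (4.33 ± 0.33 FPKM) overlapped as well, whereas SESN1 (3.56 ± 0.41) and TP53INP1 (1.36 ± 0.41 FPKM) each lay below every library of the gene before them in this order. The arrest gene CDKN1A was thus present at several times the level of every feedback gene except CCNG1, the level of which it exceeded without overlap.

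The 10 genes were next set against all genes tested. Without the block, edgeR called 0 of the 10 at an adjusted p of 0.05, as it did 0% of 12959 genes, and the adjusted p was 0.968 for each of the 10. At an unadjusted p under 0.05 it called 1 of the 10 (ZMAT3), against 3.09% of all genes in either direction and 0.864% of all genes higher, and DESeq2 called 0 of the 10 at an adjusted p of 0.05. With the block, 2 of the 10 passed an adjusted p of 0.05, both higher, against 0.849% of all genes in either direction and 0.123% in the direction of a rise. At an unadjusted p under 0.05 with the block, all 10 were called, 9 of them higher, where 18.3% of all genes were called, 7.89% higher and 10.4% lower. These calls do not rest on the pairs of a gene alone, since edgeR takes its spread partly from other genes. The SD over 3 pairs ran from 0.078 (PPM1D) to 0.45 (GDF15), whereas the standard errors with the block ran only from 0.059 (CDKN1A) to 0.14 (TP53INP1). In all 3 pairs, 7 of the 10 were higher and 1 (MDM2) was lower, where 19.9% of all genes were higher and 21.1% lower. Without overlap between the groups, 2 of the 10 were higher (ZMAT3 and SESN1), against 4.08% of all genes, and 8 overlapped, where 9.21% of all genes did not overlap in either direction. With 3 libraries against 3, an exact permutation test on a single gene cannot give a two-sided p below 0.1.

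**Figure D3:**
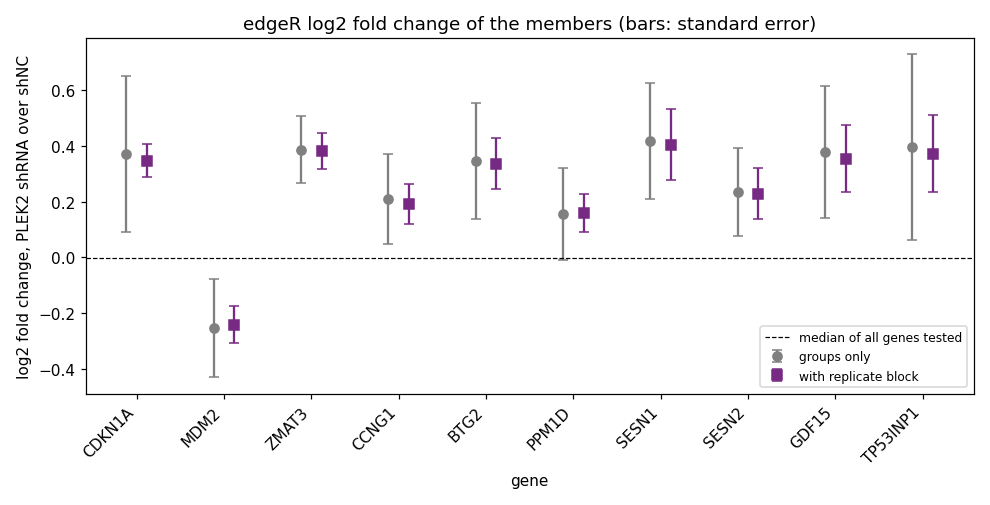
Log2 fold change from edgeR (y axis) for each of the 10 genes without a term for the replicate number (grey circles) and with the replicate block (purple squares), with bars giving the standard error and a dashed line at the median of all genes tested (-0.002). The estimates hardly move between the fits, whereas the standard error of CDKN1A goes from 0.28 to 0.059.

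The spread between replicates was large beside these differences. Replicate 1 was the highest shNC library for 9 of the 10 genes, with GDF15 as the exception, and the highest PLEK2 shRNA library for all 10, where it was the highest shNC library for 41% and the highest PLEK2 shRNA library for 39.8% of all genes. For 6 of the 10 genes (CDKN1A, MDM2, CCNG1, BTG2, PPM1D and TP53INP1), shNC replicate 1 even lay above PLEK2 shRNA replicates 2 and 3. Within the shNC group, CDKN1A was higher in replicate 1 than the mean of replicates 2 and 3 by 0.71 on the log2 scale, more than its difference between the groups, and TP53INP1 was also higher by 0.71.

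When the sum of squares of log2 CPM over the 6 libraries was divided, the replicate number took 82.2% for CDKN1A and the group 16.2%. PPM1D (84.7%), TP53INP1 (80.4%) and MDM2 (73.0%) also varied mainly with the replicate number. ZMAT3 was the exception, with 29.6% for the replicate number and 67.8% for the group. The replicate number took over 50% for 8 of the 10 genes and for 63.3% of all genes tested. The median share was 68.6% for the 10 genes and 62.6% for all genes.

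**Figure D4:**
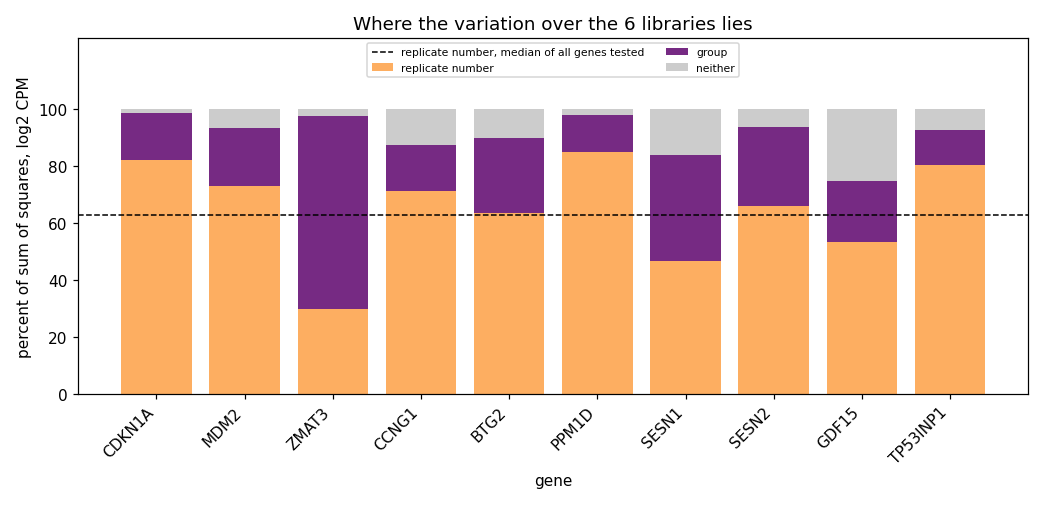
Share of the sum of squares of log2 CPM over 6 libraries (y axis, percent) that goes with the replicate number (orange), the group (purple) and neither (grey) for each of the 10 genes. The dashed line marks the median share of the replicate number over all genes (62.6%), which ZMAT3 (29.6%), SESN1 (46.7%) and GDF15 (53.3%) do not reach.

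Pair 1 carried the largest change for 9 of the 10 genes, compared with 42.2% of all genes, and it was also the pair in which PLEK2 fell most. The depth of the PLEK2 decrease and other traits of replicate 1 cannot be told apart here, and a relation to the 10 genes was not tested. The median log2 ratio over the 10 genes was 0.47 in pair 1, 0.17 in pair 2 and 0.17 in pair 3. With replicate 1 left out of both groups and the block kept, 9 of the 10 still had a positive log2 fold change, and the median was 0.21. In that fit CDKN1A (0.28, edgeR adjusted p = 0.00289) and ZMAT3 (0.35, edgeR adjusted p = 0.00606) passed, where 4.06% of all genes were called, while GDF15 came to 0.089. With PLEK2 shRNA replicate 1 alone left out and no block, the median was 0.038 and 6 of the 10 were positive, a fit in which shNC replicate 1 has no partner. Without replicate 2 of both groups, 0 of the 10 passed and 0.138% of all genes were called (CDKN1A 0.37, edgeR adjusted p = 0.224; ZMAT3 0.38, edgeR adjusted p = 0.242). Without replicate 3, 4 passed, where 2.29% of all genes were called, and BTG2 (0.48, edgeR adjusted p = 0.00183) and GDF15 (0.58, edgeR adjusted p = 3.27e-05) joined CDKN1A and ZMAT3. Fits with the block and a replicate number left out have few libraries per gene, so edgeR takes the spread mostly from other genes. Without replicate 1 or 3 they called more genes than the fit of all 6 libraries (0.849%). Their smaller p-values therefore do not show a firmer rise.

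The opposite shift of MDM2 was examined further, a choice made after its values were seen. The count of each other member was divided by the count of MDM2 in the same library, a ratio that does not depend on how libraries are scaled. CDKN1A had 1.82, 1.56 and 1.78 counts per MDM2 count in shNC replicates 1, 2 and 3, and 3.37, 2.05 and 2.44 in PLEK2 shRNA replicates 1, 2 and 3. The ratio of CDKN1A to MDM2 was thus higher in every PLEK2 shRNA library than in every shNC library, by 1.49-fold on average over pairs. For ZMAT3 the ratio went from 0.436 ± 0.065 to 0.663 ± 0.017 (SD, n = 3), again without overlap.

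The ratios to MDM2 of CDKN1A, ZMAT3, BTG2, PPM1D and SESN1 did not overlap between the groups. These were 5 of 9 genes, against 16.6% of all genes with counts in every library. All 27 pair comparisons gave a higher ratio with PLEK2 shRNA, but 59.1% of all genes were also higher relative to MDM2 in all 3 pairs, which limits what this count shows about the 9 genes.

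**Figure D5:**
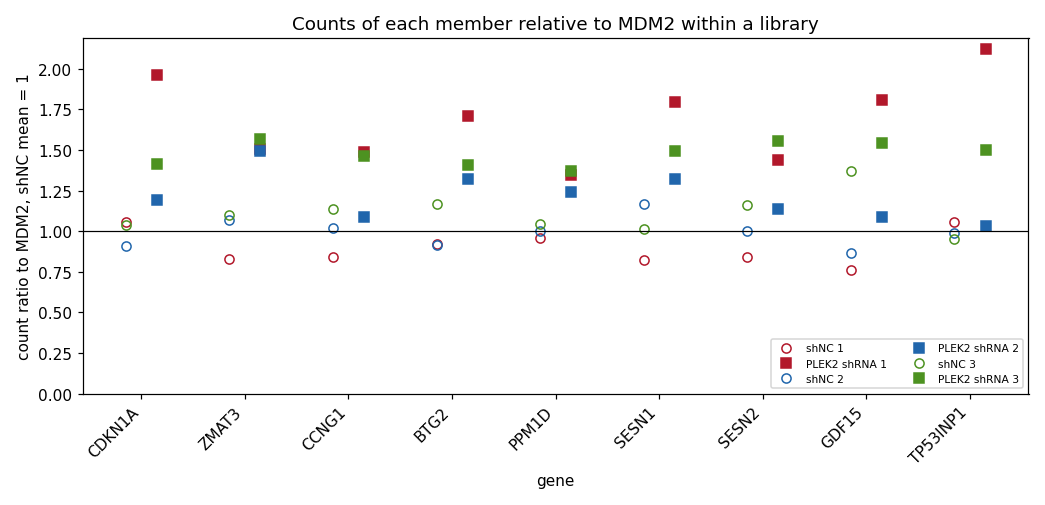
Counts of each of the 9 other genes relative to MDM2 in the same library (y axis, from 0, with the shNC mean set to 1), with open circles for shNC libraries and filled squares for PLEK2 shRNA libraries, coloured by replicate number. For CDKN1A, ZMAT3, BTG2, PPM1D and SESN1 every square lies above every circle.

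MDM2 (GRCh38 chromosome 12, 68808177 to 68845544, plus strand) shares 3348 bases at its 3′ end with the carboxypeptidase M gene on the opposite strand, and the sources used here do not give whether reads were counted by strand. In the shNC libraries that gene stood at 21.90, 19.13 and 19.32 CPM, and in the PLEK2 shRNA libraries at 30.39, 18.59 and 20.45 CPM. The summed counts of both genes were still lower in each pair, with ratios of -0.23, -0.065 and -0.16 on the log2 scale. TP53INP1 lies wholly within NDUFAF6 on the opposite strand. NDUFAF6 had 16.49, 18.14 and 16.69 CPM with shNC and 17.42, 15.44 and 17.14 CPM with PLEK2 shRNA, and the summed counts of both genes gave pair ratios of 0.30, -0.17 and 0.15 on the log2 scale. Where exons of both genes share bases, reads cannot be told apart without the strand, and whether exons overlap was not examined. Counts carried decimals in 0 libraries for TP53INP1 and for NDUFAF6. They did so in 1 library for MDM2 and in 1 for the carboxypeptidase M gene.

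Since these genes were chosen as targets of p53, their promoters were searched for the p53 response element. Only the form in which a pair of 10-base elements of the p53 consensus abut was searched. RefSeq promoter windows (GRCh38.p14, 250 bases before to 50 after each start) were found for 9 of the 10 genes, 16 windows in all. TP53INP1 had no entry. The central C and G of both elements had to match, and the consensus reads the same on both strands. The best match is shown for the 3 genes with at most 3 mismatches over 20 bases, and for CDKN1A and ZMAT3 because they rose. Capitals are bases that meet the consensus, and lower case marks mismatches.
MDM2: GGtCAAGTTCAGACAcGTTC
SESN1: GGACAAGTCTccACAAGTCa
GDF15: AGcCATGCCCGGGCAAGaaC
ZMAT3: GGGCcTGCTCcGcCAAGCaC
CDKN1A: tGGCcTGCTgGAACTcGgCC
The match of MDM2, with 2 mismatches, lies at chr12:68808923-68808942 (plus strand), 94 to 75 bases before a start at 68809017. That start is 1 of 4 annotated for MDM2, which span 852 bases. SESN1 holds its match, with 3 mismatches, at chr6:109009018-109009037 (minus strand), 49 to 30 bases before a start. In GDF15 the match, also with 3 mismatches, lies at chr19:18386186-18386205 (plus strand), 29 to 48 bases into the transcript. Matches with at most 3 mismatches occur in 1.12% of all 35116 windows, and matches with at most 2 in 0.285%. These shares count single windows, whereas the match of a gene is the best over all its windows. MDM2 had 4 windows, SESN1 3 and ZMAT3 2, so the shares make their matches look rarer than a share of genes would. The best matches of ZMAT3 (chr3:179071873-179071892, minus strand) and CDKN1A (chr6:36678541-36678560, plus strand) had 4 and 5 mismatches, which 4.05% and 11.5% of windows reach or better. MDM2, the member with the closest match within these windows, was the 1 that was lower in the PLEK2 shRNA group. A relation between match and direction was not tested. A match of letters is not evidence of binding. Sites outside these windows, and sites with other bases between the 10-base elements, were not searched, so a poor match here does not show that a gene lacks a site.

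The nearest paralogues of the 10 genes, most of which are not known mainly as p53 targets, were taken as a comparison. Of 15 paralogues 12 were tested, 9 had a positive log2 fold change, against 49.4% of all genes, and the median was 0.11. In all 3 pairs, 6 of the 12 were higher and 1 was lower, where 19.9% of all genes were higher and 21.1% lower. At an unadjusted p under 0.05 with the block, edgeR called 2 of the 12 higher and 0 lower, where it called 7.89% of all genes higher. None (0 of 12) passed an adjusted p of 0.05 with or without the block in edgeR. CCNG2, a cyclin induced by FOXO factors, had the largest log2 fold change of the 12 paralogues with the block, with pair ratios of 0.55, 0.36 and 0.25 on the log2 scale (0.40 with the block, standard error 0.12, edgeR adjusted p = 0.123). MDM4, the partner of MDM2 in holding p53 inactive, had pair ratios of -0.13, -0.033 and -0.073 (edgeR adjusted p = 0.485 with the block). CDKN1B, which encodes the related inhibitor p27, gave 0.44, 0.068 and -0.065, and CDKN1C, which encodes p57, gave -0.33, 0.12 and -0.54. BTG1 (0.11) and BTG3 (0.12), relatives of BTG2, and PPM1A (0.19) and PPM1B (0.14), relatives of PPM1D, had small positive log2 fold changes with the block, while PPM1G (-0.022), CCNI (0.080) and TP53INP2 (0.0040) were nearer to 0. SESN3 gave 0.38 with a standard error of 0.25, at a level of 0.19 FPKM with shNC. ZMAT1, ZMAT4 and BTG4 did not pass the filter on low counts.

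Genes that regulate p53 were compared in the same way. The acetyltransferase gene CREBBP, a coactivator of p53, had the smallest p among them with the block (log2 fold change -0.42, standard error 0.089, edgeR adjusted p = 0.0505). It was followed by RCHY1, a p53 ubiquitin ligase (0.27), DAXX (-0.16) and CDKN2A (-0.17), all with an edgeR adjusted p of at least 0.113.

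Of 44 other genes that p53 activates, 41 were tested and 31 had a positive log2 fold change, compared with 49.4% of all genes. Their median of 0.092 was below the 0.36 of the 10 genes. None (0 of 41) passed an adjusted p of 0.05 in edgeR with the block, and 9 had an unadjusted p under 0.05, all higher, where 18.3% of all genes had one and 7.89% had one and were higher. The ribonucleotide reductase subunit gene RRM2B (0.30, edgeR adjusted p = 0.0674), the death receptor gene TNFRSF10B (0.21, edgeR adjusted p = 0.0898), the apoptosome gene APAF1 (0.28, edgeR adjusted p = 0.0936) and FBXO22 (0.20, edgeR adjusted p = 0.185) had the smallest p in that fit. This list was written from general knowledge with earlier results of these data known.

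Genes downstream of p21 were examined next. Of the 10 tested cyclins, kinases and PCNA that p21 binds, 7 were positive, with a median log2 fold change of 0.047. CCNE2 (0.29, edgeR adjusted p = 0.0914 with the block) and CCNE1 (0.13) were higher and CCND1 (-0.17) and CCND3 (-0.15) lower in the mean, and 0 of 10 passed an adjusted p of 0.05. Of 20 cell cycle genes that p53 and p21 repress through the DREAM complex, 10 were positive and the median was -0.002. Of the 20 genes, 4 were lower in all 3 pairs, where 21.1% of all genes were, and 4 were lower without overlap, where 5.12% of all genes were. These were MCM5 (-0.23), CDC20 (-0.18), MYBL2 (-0.18) and BIRC5 (-0.13), the same 4 that had the smallest p with the block. None (0 of 20) passed an adjusted p of 0.05 (edgeR adjusted p = 0.0817 for MCM5). The median ratio of this list was -0.15 in pair 1, 0.014 in pair 2 and 0.023 in pair 3.

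Since GDF15 and SESN2 are also induced by ATF4 in the integrated stress response, 15 other genes of that response, ATF4 itself among them, were compared with them. Of these 4 were positive, and the median log2 fold change was -0.10. PHGDH, the first enzyme of serine synthesis, was lower in all 3 pairs (-0.29 with the block, edgeR adjusted p = 0.0666), as were ASNS (-0.16) and TRIB3 (-0.13), while STC2 (-0.12) was lower in 2 of 3 pairs. None (0 of 15) passed an adjusted p of 0.05. Among 16 genes of the GATOR complexes, mTORC1 and the other pathways that sestrins act on, 5 were positive, with a median of -0.048, and NPRL3 (-0.22), SEH1L (-0.25), TSC2 (-0.18) and PRKAA1 (0.17) had the smallest p with the block (edgeR adjusted p = 0.0876 for NPRL3). None (0 of 16) passed.

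Finally, the genes whose pattern over the 6 libraries lay nearest to that of CDKN1A were listed, by the root mean square difference of centred log2 CPM over 10140 genes with a mean log2 CPM above 3. They were GULP1 (0.079), CCDC82 (0.080), RRM2B (0.083), ZNF326 (0.083) and CHMP2B (0.088). RRM2B, itself a p53 target, had 58.40, 36.49 and 32.96 CPM with shNC and 79.34, 40.93 and 39.38 CPM with PLEK2 shRNA. Among the other 9 members, TP53INP1 ranked 27 and BTG2 ranked 57 in this order, and MDM2 ranked 3012. Likeness here weighs the differences between replicates as well as those between the groups, and the replicate number took 82.2% of the sum of squares of CDKN1A.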

How the data were processed

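HCT116 mRNA was purified with oligo(dT) and sequenced as single-end reads of 50 nt on a DNBSEQ platform. Per the labels, HISAT2 2.0.4, Bowtie2 2.2.5, RSEM 1.2.12 and DESeq2 1.4.5 were used, without their roles, and the build named there is a mouse assembly although the gene IDs are human. For every gene the authors deposited an estimated count, often with decimals, and length-scaled values without a named unit, read here as FPKM. The deposited group means were not used.

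Counts were rounded, filtered (filterByExpr), scaled by TMM and tested with edgeR 4.0.16 (quasi-likelihood, R 4.3.3), with Benjamini-Hochberg adjustment over 12959 genes. Pair ratios used a prior count of 0.5. The tests were tried on simulated data. Alternatives used limma 3.58.1 and DESeq2 1.42.0. The depth of 14377532 to 15602732 counts leaves counting error as given, and intervals of this kind cover counting error only.

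The titles number the libraries of each group, but neither the labels nor the paper says what a shared number stands for. Pairing was read from these same data. Over 10141 genes, with the group means removed, same-numbered libraries had correlations of 0.733, 0.549 and 0.541. All others had 0.350 or less, but shNC 2 with PLEK2 shRNA 3 (0.350) and shNC 3 with PLEK2 shRNA 2 (0.343) were positive too. Hence both fits are given. Named genes were the 10 members, PLEK2, a gene that is not reported here, the tested paralogues, in each other list the 4 with the smallest p under the block, and the 5 nearest to CDKN1A. Members and lists were chosen with earlier results of these data known. Gene positions and 3′ UTRs come from GENCODE 44 and promoters from RefSeq, both on GRCh38, which may differ from the build behind the counts.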

Additional observations from a re-analysis of the deposited data

How the results depend on the processing

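Over 8 fits without the replicate block, 9 of the 10 genes had a positive log2 fold change and 0 passed an adjusted p of 0.05, and the median over the 10 lay between 0.28 and 0.39. The count of all genes at an adjusted p of 0.05 was 0 with edgeR and 12 with DESeq2. With the replicate block it was 110, with library totals added 192, with DESeq2's size factors 85, with DESeq2's test 57 and with a minimum of 10 counts per library 87. In each of these 5 fits 2 of the 10 genes passed (CDKN1A and ZMAT3) and the median lay between 0.34 and 0.37. DESeq2 with the block gave no adjusted p for BTG2, SESN1, SESN2 and TP53INP1. Leaving out 1 library without the block left 0 to 1 genes called in all, 0 of the 10, between 6 and 9 positive, and a median from 0.038 to 0.47. Without PLEK2 shRNA replicate 1, CDKN1A (-0.0060), CCNG1 (-0.0025) and TP53INP1 (-0.067) changed sign, and their highest values were 0.66, 0.34 and 0.69. With the block, leaving out replicate 1, 2 or 3 of both groups called 528, 18 and 297 genes and 2, 0 and 4 of the 10, with medians from 0.21 to 0.39. In these fits the spread of a gene is taken mostly from other genes, which limits what the counts of genes called show. The cause was not tested where fewer samples do not give it. SESN1 and TP53INP1, with at most 277 and 243 counts per library, had counting errors of up to 0.17 and 0.21 in a pair ratio, below the SD of 0.31 between their pairs.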
